A study of Mus musculus with 24 samples.

Results

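4-phenylbutyrate (4PBA) was compared with vehicle in the cerebellum of the Derlin-2 line, on 4 arrays with 4PBA against 4 arrays without it. The 8 arrays were chosen by their titles, out of 24 arrays in the series, and held 2 arrays of each of 4 groups: Derlin-2 controls with vehicle, Derlin-2 knockouts (KO) with vehicle, controls with 4PBA and KO with 4PBA. Both genotypes carried floxed Derlin-2 alleles on a C57BL/6 background. The KO also carried a Cre recombinase transgene under the nestin promoter, which is active in the precursors of neurons and of most glia, so that endothelial cells, microglia and blood cells of a KO cerebellum can still hold an intact gene. Mice were injected into the abdomen once a day with 200 mg/kg 4PBA or with water as vehicle, from day 14 to day 28 after birth. Total RNA of whole cerebellum was labelled with Cy3 and hybridised, 1 sample per single-colour array. The labels do not say whether replicates came from separate mice, so the p-values measure only a spread between samples, which may be technical. In the main fit, the spread behind p-values and standard errors was estimated over all 24 arrays of the series, 16 of them of another line. Cerebella were taken at day 28. The other 16 arrays belong to a Derlin-1 line, with floxed Derlin-1 controls and nestin-Cre KO, and share no sample with the Derlin-2 line. Of these, 8 had 4PBA, 4 had vehicle, and 4, named by letters, have titles that give no injection.

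4PBA is a small aromatic fatty acid that acts as a chemical chaperone, reducing the load of misfolded proteins in the endoplasmic reticulum (ER), and that also inhibits histone deacetylases. Derlin-2 is an ER membrane protein of ER-associated degradation, the route by which misfolded proteins leave the ER for the proteasome. When misfolded proteins build up, the sensors Ire1, Perk and Atf6 switch on the unfolded protein response, which raises ER chaperones such as Hspa5. The cerebellum consists mainly of granule neurons, with Purkinje cells, inhibitory interneurons, Bergmann glia and other astrocytes, oligodendrocytes, microglia and vessels, and borders on the choroid plexus. The comparison asks which cerebellar transcripts differed between injections, and which of them did so alike in controls and KO.

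Levels below are log2 intensities minus the array's 75th percentile, so that 0 is the brightness of that percentile, and a difference is the 4PBA level minus the vehicle level. Derl2, the gene deleted in the KO, was measured first. Its level was 1.43 and 1.54 on the control vehicle arrays, 1.58 and 1.40 on the control 4PBA arrays and 0.18 and 0.24 on the KO 4PBA arrays. The arrays labelled KO vehicle 1 and KO vehicle 2 had 1.72 and 0.48. Thus 3 of the 4 KO arrays lay below every control array, and the array labelled KO vehicle 1 was at the control level, against its label. It was kept as labelled, and values without it are given beside several of the results. The averaged Derl2 difference was -0.44 ± 0.20 (SE; adjusted p = 0.522), -0.13 without that array, and -0.75 without KO vehicle 2 (limma adjusted p = 0.0341). Derl1 (-0.17) and Derl3 (-0.40), which encode the related ER proteins, did not pass the test either, and Derl3 lay between -1.96 and -0.61 on the 4 KO arrays against -3.03 to -2.75 on the 4 control arrays.

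All 8 arrays lay on 1 slide, with vehicle in slide row 1 and 4PBA in slide row 2, so that slide row and injection cannot be told apart. The 4PBA arrays had 489 to 637 spots flagged as outliers by the scanner software against 213 to 408 on the vehicle arrays, and 57.7% to 62.9% of spots well above background against 63.5% to 66.9%. The 2 dimmest of 10 spike-in controls, RNAs added in the same amount to each sample, were brighter in row 2 by 0.82 and 0.65 in log2 intensity, with no overlap between the rows, and of the other 8 spike-ins 7 were dimmer by 0.11 to 0.23. On the 2 Derlin-1 slides, which have the same row order, the same 2 dim spike-ins were brighter in row 2 by 0.57 and 0.39 and by 0.23 and 0.17. The part of the slide row in the results below was not tested. Genes with a symbol that were well above background on both arrays of at least 1 Derlin-2 group were tested, 16363 in all, of which 14516 were well above background on all 8 arrays. With 2 arrays per group, the number of arrays limits the precision, and the median standard error of a log2 difference averaged over genotype was 0.11.

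Few transcripts passed the test of a difference between injections. Averaged over genotype, 17 of 16355 genes passed (0.104%; limma adjusted p under 0.05), 13 higher (0.0795%) and 4 lower (0.0245%) with 4PBA. An unadjusted p under 0.05 was reached by 1539, 411 higher (2.51%) and 1128 lower (6.90%). Just 4 of the 17 could be measured above background throughout the 8 arrays: Nfatc1 was lower, and Ext1, Car11 and Zscan2 were higher. Nfatc1, Ext1 and Car11 also moved alike, meaning that in controls and again in KO both 4PBA arrays lay beyond both vehicle arrays in the same direction. When the 8 Derlin-2 arrays were fitted alone, with genotype as an additive block, limma called 0 genes on average and 2159 had an unadjusted p under 0.05. That setting changes both the arrays and the model, and which of them ended the calls was not tested. Quantile normalization gave 38 calls, 12 higher and 26 lower, in place of the 13 and 4 above. Leaving out 1 array raised the count by over 1.5 times in 5 cases, to 33 without control vehicle 1, 43 without KO vehicle 1, 31 without KO vehicle 2, 36 without control 4PBA 2 and 42 without KO 4PBA 1.

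Nfatc1 encodes a transcription factor that enters the nucleus when calcineurin removes its phosphates. Its level was -1.79 and -1.83 on the control vehicle arrays, -2.08 and -2.19 on the KO vehicle arrays, -2.37 and -2.34 on the control 4PBA arrays and -2.43 and -2.40 on the KO 4PBA arrays. The 4 arrays with 4PBA lay below the 4 arrays without it, and the KO vehicle arrays lay between the control vehicle arrays and the 4PBA arrays. The averaged difference was -0.42 ± 0.06 (SE, n = 4 against 4 arrays; limma adjusted p = 0.00844), with -0.55 in controls and -0.28 in KO. It was -0.39 without KO vehicle 1 (limma adjusted p = 0.0327), and the call held when any 1 of the 8 arrays was left out. It was lost with normexp background correction (limma adjusted p = 0.0676), a trended robust variance (0.0803), the replicate number as a block (0.0921) and the 8 arrays alone (0.335). With the mean of the gene's probes the call was lost too, and the difference was 0.0091 (limma adjusted p = 0.993). A dimmer Nfatc1 probe, well above background on 6 of 8 arrays and without a value on KO 4PBA 2, showed a difference of -0.20 (unadjusted p = 0.568). In the Derlin-1 line the Nfatc1 difference was 0.01.

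Ext1 encodes a glycosyltransferase that builds heparan sulfate chains. Its level was -0.48 and -0.57 on the control vehicle arrays, -0.47 and -0.46 on the KO vehicle arrays, -0.22 and -0.16 on the control 4PBA arrays and -0.02 and -0.05 on the KO 4PBA arrays. All 4 arrays with 4PBA were above the 4 arrays with vehicle. The averaged difference was 0.38 ± 0.06 (SE, n = 4 against 4 arrays; limma adjusted p = 0.0277), 0.34 in controls and 0.43 in KO, and 0.01 in the Derlin-1 line. The size was 0.36 to 0.40 with any 1 array left out, but the limma adjusted p stayed under 0.05 in only 1 of the 8 cases and was 0.0603 without KO vehicle 1. The call was also lost with normexp (0.0944), with a filter for genes well above background on all 8 arrays (0.119), with the replicate number as a block (0.0921) and with the 8 arrays alone (0.216).

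Car11, a carbonic anhydrase-related protein without the enzyme's catalytic activity, had a level of 1.24 and 1.33 on the control vehicle arrays and 1.33 and 1.34 on the control 4PBA arrays. On the KO vehicle arrays it was 0.85 and 0.62, and on the KO 4PBA arrays 1.33 and 1.60. The KO vehicle arrays were thus the low ones, and in controls the 4PBA arrays lay above the vehicle arrays by very little. The averaged difference was 0.39 ± 0.07 (SE; limma adjusted p = 0.0491), from 0.05 in controls and 0.73 in KO, where it passed on its own (limma adjusted p = 0.00339). The difference between genotypes, 0.68, did not pass (limma adjusted p = 0.102). Without KO vehicle 1 the averaged Car11 difference was 0.45 (limma adjusted p = 0.0207), and the averaged call was lost without any of 6 other arrays, with a highest adjusted p of 0.135 when KO 4PBA 2 was left out; the KO call held without any 1 array. The averaged call was also lost with centring on bright probes (limma adjusted p = 0.0878), normexp (0.0697), the authors' deposited table (0.0771), the filter for all 8 arrays (0.131), the replicate block (0.179) and the 8 arrays alone (0.365).

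**Figure D1:**
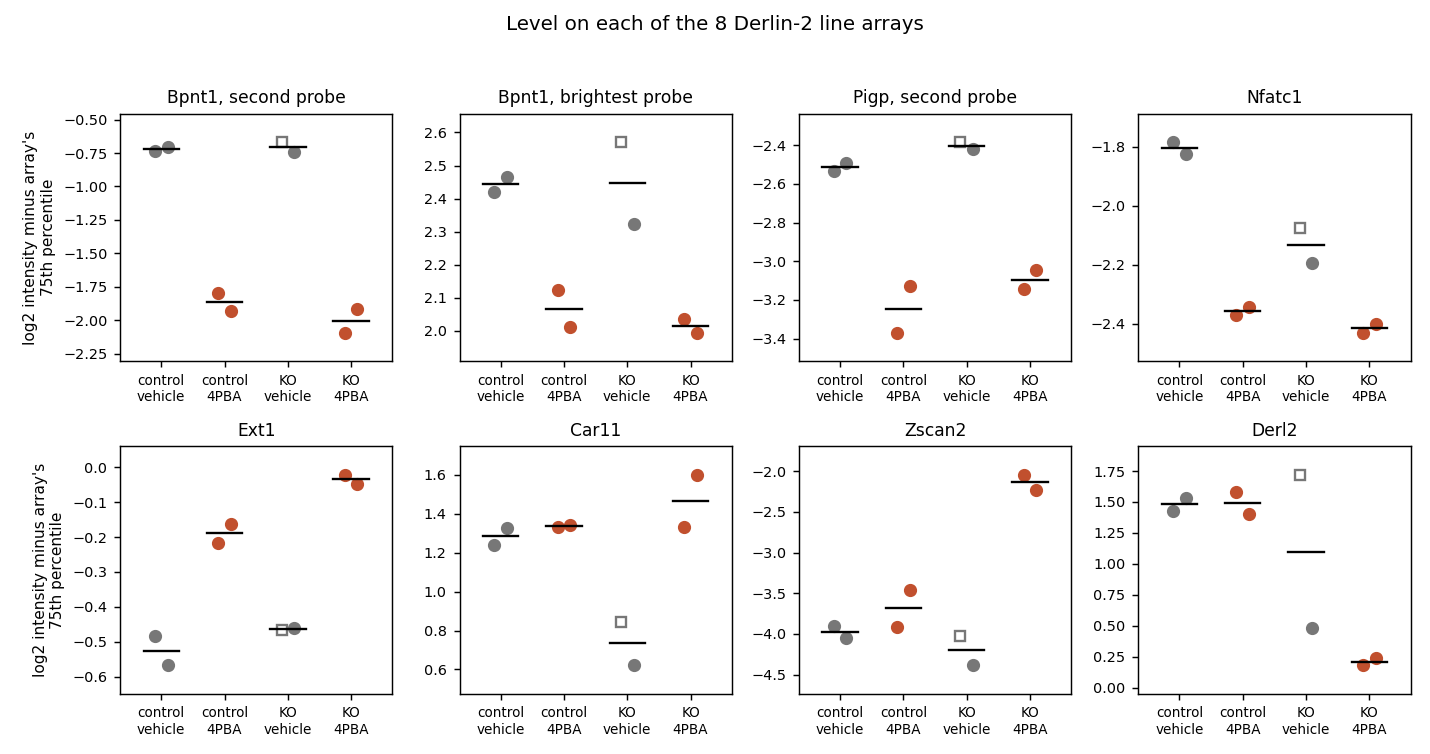
Level (log2 intensity minus the array's 75th percentile) of 7 genes on each of the 8 arrays, with Bpnt1 shown for its 2 probes and Pigp for the dimmer of its 2 probes alone. Points are arrays, black lines are means of the 2 arrays of a group, grey is vehicle, orange is 4PBA, and the open square is the array labelled KO vehicle 1. Bpnt1, the Pigp probe shown, Nfatc1 and Ext1 separate by injection in both genotypes, Car11 and Zscan2 differ in the KO, and the open square for Derl2 (1.72) lies with the controls. The brighter Pigp probe, not shown, differed by -0.01.

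Bpnt1, which encodes a phosphatase that clears bisphosphorylated nucleotides and inositol phosphates, had the smallest p among the genes that were well above background on all 8 arrays, lower alike and missed the threshold. Its brightest probe read 2.42 and 2.47 on the control vehicle arrays, 2.57 and 2.32 on the KO vehicle arrays, 2.12 and 2.01 on the control 4PBA arrays and 2.04 and 1.995 on the KO 4PBA arrays. The groups did not overlap, and the averaged difference was -0.40 ± 0.08 (SE; limma adjusted p = 0.0825, with 0.0371 without KO vehicle 2 and 0.154 without KO vehicle 1). The dimmer of its 2 probes showed a wider gap: -0.74 and -0.70, then -0.67 and -0.74 on the control and KO vehicle arrays, and -1.80 and -1.93, then -2.09 and -1.92 on the control and KO 4PBA arrays. When every probe was tested on its own, a choice made after the data were seen, this probe had a difference of -1.22 ± 0.10 (SE; limma adjusted p = 7.31e-05), with -1.15 in controls and -1.30 in KO. It was -1.20 without KO vehicle 1 (limma adjusted p = 0.000657). In the Derlin-1 line the same probe differed by 0.04, and the difference between the lines, -1.26 ± 0.13 (SE), passed (limma adjusted p = 0.000774). In that fit 22 of 23754 probes passed (0.0926%), 14 higher and 8 lower, and 6 of the 22 were well above background on all 8 arrays: those of Zscan2, Nfatc1 and Ext1 described above or below, and 1 probe each of Bpnt1, Pigp and Cntn4, the last 3 named after their values were seen.

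Pigp encodes a subunit of the enzyme that starts the synthesis of glycosylphosphatidylinositol anchors. The dimmer of its 2 probes read -2.54 and -2.49 on the control vehicle arrays, -2.38 and -2.42 on the KO vehicle arrays, -3.37 and -3.13 on the control 4PBA arrays and -3.14 and -3.05 on the KO 4PBA arrays. The difference was -0.71 ± 0.10 (SE; limma adjusted p = 0.00495 over every probe), while the brighter Pigp probe differed by -0.01 (limma adjusted p = 0.98). The 2 probes of this gene therefore disagree. For Cntn4, a cell adhesion molecule of the contactin family, 1 dim probe differed by -1.06 (limma adjusted p = 0.00469; -1.81 in controls and -0.30 in KO) and its 2 other probes by 0.10 and -0.13.

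A further 10 genes named by the rule were lower alike in both genotypes and missed the threshold, with limma adjusted p from 0.0825 to 0.152. Metabolic genes among them were Ndufb10, an accessory subunit of respiratory complex I, and Alas1, the rate-limiting enzyme of heme synthesis. Ndufb10 read 6.06 and 6.11 on the control vehicle arrays, 6.05 and 6.17 on the KO vehicle arrays, 5.21 and 5.21 on the control 4PBA arrays, and 5.03 and 5.95 on the KO 4PBA arrays, a difference of -0.75 ± 0.14 (SE; limma adjusted p = 0.0825, and 0.0913 without KO vehicle 1). The KO 4PBA 2 array lay near the vehicle arrays and the other 3 were lower. Alas1 was between 3.62 and 3.74 with vehicle and between 3.22 and 3.50 with 4PBA (-0.29). Of the genes of signalling, Grin2a, an NMDA receptor subunit, differed by -0.43, Lrrc8b, a subunit of the volume-regulated anion channel, by -0.40, Inhbb, the activin beta B subunit, by -0.35, and Igfbp6, which binds insulin-like growth factors, by -0.38. The cytoskeletal genes were Fmn2, an actin-nucleating formin (-0.32; limma adjusted p = 0.0825, with 0.0445 without KO vehicle 1 and 0.20 without KO vehicle 2), and Arhgef17, a guanine nucleotide exchange factor (-0.37). Hmgb1, a chromatin protein that bends DNA, differed by -0.37, and its 2 other probes by -0.31 and -0.23. Other probes of these genes did not all show the difference: Fmn2's second probe, on all 8 arrays, differed by -0.0041 (0.27 in controls and -0.28 in KO), those of Alas1 by -0.25 and 0.0023, that of Grin2a by -0.30 and that of 2610507B11Rik by -0.06. Hmgb1 also differed by -0.29 in the Derlin-1 line, and 2610507B11Rik by -0.28 here and -0.11 there.

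The genes that were higher alike and missed the threshold included 3 of a family of near-identical copies. Fam205a2 and the transcribed pseudogenes 4933409K07Rik and Gm3893 differed by 1.88, 1.35 and 2.22, and their probes can bind transcripts of more than 1 copy, so the values of single members are uncertain. Fam205a2 read -1.20 and -1.66 on the control vehicle arrays, -1.59 and -4.07 on the KO vehicle arrays, -0.27 and -0.32 on the control 4PBA arrays and -0.07 and -0.36 on the KO 4PBA arrays. The KO vehicle 2 array was far below the other 7, as it was for 4933409K07Rik (-4.26) and Gm3893 (-4.65). The limma adjusted p of the Fam205a2 difference was 0.0825 with all arrays, 5.59e-05 without KO vehicle 1 (difference 2.50) and 0.019 without KO vehicle 2 (difference 1.25). Whether the other 2 genes passed depended on which of these arrays was left out. Without KO vehicle 1, 4933409K07Rik differed by 1.74 (limma adjusted p = 0.00581) and Gm3893 by 3.04 (limma adjusted p = 0.000108), and without KO vehicle 2 by 0.97 (limma adjusted p = 0.209) and 1.41 (limma adjusted p = 0.0578). The 2 other probes of Fam205a2 differed by 0.48 and 0.20.

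The other higher genes of the rule described here encode transcriptional regulators (Bach2, 0.70; Sap30, a subunit of the Sin3 histone deacetylase complex, 0.54), a growth factor for the epidermal growth factor receptor (Tgfa, 1.61), a calpain protease (Capn15, 0.77) and a channel protein of the Calhm family (Calhm5, 1.04). C4a, a relative of complement genes that the annotation gives as a transcribed pseudogene, differed by 1.52. The limma adjusted p of these genes lay between 0.0979 and 0.179. Tgfa was between -4.54 and -4.43 with vehicle, but spread from -4.44 to -1.63 with 4PBA, so its arrays do not agree on a size. Over all tested genes, 505 were higher alike (3.09%) and 1643 were lower alike (10.0%), or 441 (2.70%) and 1625 (9.93%) after quantile normalization.

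The difference between injections was tested between genotypes. Zscan2, which encodes a zinc finger protein with a SCAN domain, read -3.90 and -4.05 on the control vehicle arrays, -3.91 and -3.46 on the control 4PBA arrays, -4.02 and -4.39 on the KO vehicle arrays and -2.05 and -2.23 on the KO 4PBA arrays. Only the KO 4PBA arrays stood apart. The averaged difference was 1.18 ± 0.15 (SE; limma adjusted p = 0.00338), and the effect in KO exceeded that in controls by 1.78 (limma adjusted p = 0.0407). With the 8 arrays alone the averaged call was lost (limma adjusted p = 0.349), and so was that between genotypes (0.193). The latter was also lost with quantile normalization (limma adjusted p = 0.0752) and the replicate block (0.0847). A trended robust variance (limma adjusted p = 0.124) and the filter for all 8 arrays (0.18) ended it too. The averaged call held without any 1 array (limma adjusted p up to 0.0182, and 0.00521 without KO vehicle 1). The difference between genotypes passed in only 1 of the 8 cases with an array left out, and its limma adjusted p was 0.0538 without KO vehicle 1. Ntn4, a netrin of the basement membrane, read -3.80 and -3.74, then -4.19 and -4.02 on the control vehicle and 4PBA arrays, and -3.85 and -3.85, then -2.72 and -2.57 on the KO vehicle and 4PBA arrays. Its difference between genotypes was 1.54 (limma adjusted p = 0.0385), which passed in none of the 8 cases with 1 array left out, with limma adjusted p from 0.0517 to 0.134. In all 16 of 16355 genes passed for the difference between genotypes (0.0978%), 14 of them with a larger value in KO (0.0856%) and 2 with a smaller one (0.0122%), and Zscan2 and Ntn4 were the ones well above background on all 8 arrays. The count was 10 without KO vehicle 2 and 30 without KO 4PBA 1.

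In controls alone 23 of 16358 genes passed (0.141%), 7 higher and 16 lower, and 50 passed without control 4PBA 2. In KO alone 26 of 16359 passed (0.159%), 19 higher and 7 lower, and 86 passed without KO vehicle 1, 82 without KO 4PBA 1 and 47 without KO 4PBA 2. After quantile normalization, 3 higher and 21 lower genes passed in controls, and 17 higher and 15 lower genes in KO. The genes below were well above background on all 8 arrays and are named because they passed in 1 genotype, after their values were seen. Passing in 1 genotype is no difference between genotypes, and limma's test of that difference passed for none of them: the adjusted p was 0.297 for Hebp2, 0.683 for Bach2, 0.603 for Ftl1, 0.882 for Sec63, 0.689 for Eml1, 0.0572 for Ccdc154 and 0.129 for 2810408A11Rik, and those of the others stand beside them. Hebp2, a heme-binding protein, read -2.10 and -2.07 on the control vehicle arrays and -0.77 and -0.82 on the control 4PBA arrays, but between -0.96 and -0.86 on the 4 KO arrays. Its control vehicle arrays were thus the only low ones. The Hebp2 difference in controls was 1.29 (limma adjusted p = 0.0389), and it passed in none of the 8 cases with 1 array left out (0.0593 to 0.20). Scml4, a polycomb-group protein, rose by 2.14 in controls (limma adjusted p = 0.0184) and St6galnac5, a sialyltransferase of gangliosides, by 1.40 (limma adjusted p = 0.0268), with -0.24 and -0.02 in KO, and the difference between genotypes did not pass (limma adjusted p = 0.0597 and 0.229). Each of these 2 calls held in 5 of 8 cases with 1 array left out, among them the case without KO vehicle 1, and was lost without either control vehicle array and without 1 control 4PBA array, 4PBA 2 for Scml4 and 4PBA 1 for St6galnac5. Bach2 rose in controls by 1.18 (limma adjusted p = 0.0336, and 0.0584 without KO vehicle 1, through the shared estimate of the spread). The Bach2 call held in 4 of 8 cases with 1 array left out, and was lost without KO vehicle 2 too (0.0584), without control vehicle 2 (0.93; limma adjusted p = 0.312) and without control 4PBA 1 (0.95; limma adjusted p = 0.238).

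In KO, Hspb1, a small heat shock protein, read 2.95 and 3.30 with vehicle and 1.99 and 2.14 with 4PBA, against 2.45 and 2.50, then 2.46 and 2.34 in controls. The KO vehicle arrays were the highest and the KO 4PBA arrays the lowest of the 8. Hspb1 fell by 1.06 in KO (limma adjusted p = 0.00642, and 0.00526 without KO vehicle 1; 0.0814 without KO vehicle 2), the averaged difference was -0.57 ± 0.11 (SE; limma adjusted p = 0.0825, with 0.0314 without KO vehicle 1 and 0.192 without KO vehicle 2), and the difference between genotypes did not pass (limma adjusted p = 0.195). Ftl1, the ferritin light chain, fell by 0.81 in KO (limma adjusted p = 0.0485), Sec63, a partner of the ER translocon, by 0.47 (0.0484) and Eml1, a microtubule-associated protein, by 0.57 (0.0484). Those 3 calls were each kept in 2 of 8 cases with 1 array left out, and without KO vehicle 1 the limma adjusted p was 0.0174 for Ftl1, 0.0679 for Sec63 and 0.0747 for Eml1. Ccdc154 rose in KO by 1.34 (limma adjusted p = 0.00339) and 2810408A11Rik by 0.82 (limma adjusted p = 0.00561), and both calls held without any 1 array. For Ccdc154 the KO vehicle arrays were low (-4.95 and -5.22 against -3.85 to -3.68 on the 6 other arrays), while for 2810408A11Rik the KO 4PBA arrays were high (0.53 and 0.47 against -0.41 to -0.21).

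**Figure D2:**
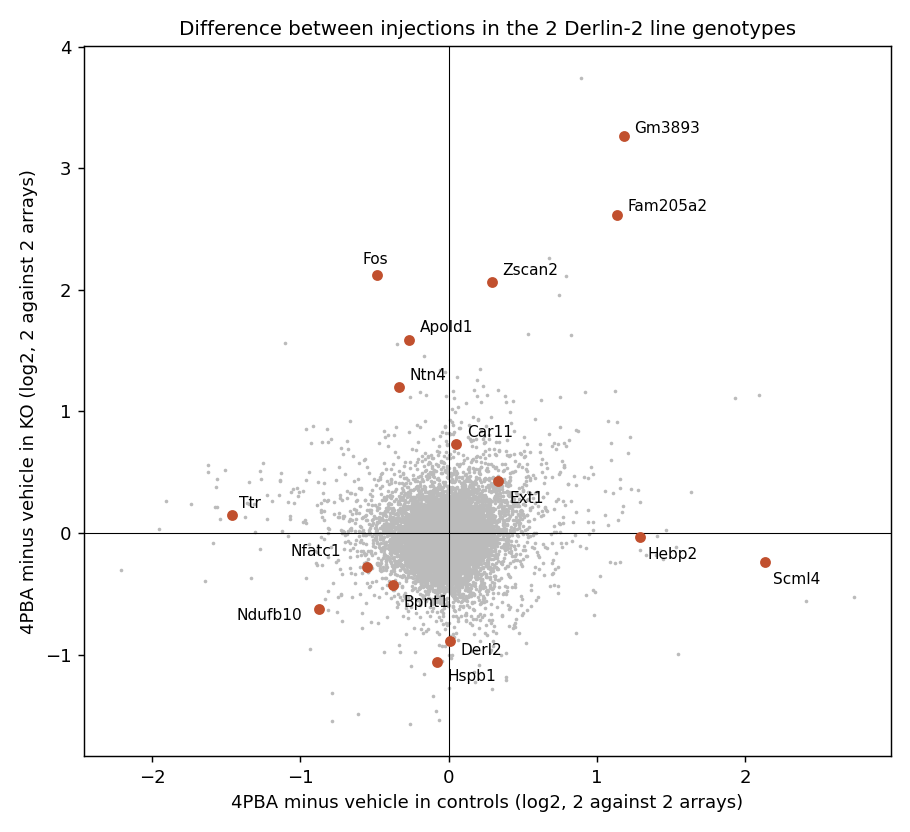
Difference between injections (4PBA minus vehicle, log2) in KO, on the vertical axis, against that in controls, on the horizontal axis, for the 14516 genes well above background on all 8 arrays, with 16 genes of the text in orange. Each value rests on 2 against 2 arrays. Nfatc1, Bpnt1, Ndufb10 and Ext1 lie in the quadrants of equal sign, as does Zscan2 (0.29 in controls and 2.07 in KO), whereas Fos (-0.48 and 2.12) does not; over all genes Pearson's r was 0.093.

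The other 13 of the 17 genes called on average were not well above background on at least 1 array, and where a whole group was dim the size is given as a bound. A bound is the brighter group's mean against the dim group's floor, which on each array is the probe's own level or the lowest level well above background, whichever is greater. Fam83c, of a family of casein kinase 1 partners, read -8.10 and -8.08, then -7.54 and -7.14 on the control vehicle and 4PBA arrays, and -8.12 and -8.44, then -2.61 and -3.10 on the KO vehicle and 4PBA arrays. It was at least 9.61-fold higher with 4PBA in KO, and was not well above background on the other 6 arrays. The dim control arrays also lay higher with 4PBA than with vehicle, as the dim spike-ins did. In KO, Gm38450 was at least 5.89-fold, Gm14164 at least 4.49-fold, Mptx2 at least 4.23-fold and Zfp964 at least 3.81-fold higher with 4PBA, and Myh4, a myosin heavy chain of fast skeletal muscle, was at least 3.76-fold higher in controls. Each of these 6 genes was well above background on the 2 arrays of that 1 group alone. They entered the test only through the group in which they are high, so their calls are a description and no support for an effect. Gm38450 and Myh4 also lacked a value on 1 array, and with the authors' deposited table their averaged calls were lost (limma adjusted p = 0.113 and 0.0721). Among the 13, Gm8013 (-2.10), Gm41175 (-2.45) and Mars2 (-1.09) were called lower with 4PBA and were lower alike. These are fitted sizes that include dim arrays, and not bounds. Without the filter on dim probes 2433 genes were called, 2287 of them higher with 4PBA.

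Immediate early genes are switched on in neurons within minutes of activity through factors such as Creb and Srf. Some of them, among them Fos, Nr4a1, Nr4a2, Dusp1, Btg2 and Apold1, read lowest on the KO vehicle arrays, a difference in vehicle level that was not tested. The pattern was not shared by the whole list: the KO differences of Egr3, Arc and Nr4a3 were -0.57, -0.25 and -0.011. Of 17 tested members of a list of 18, 14 had a positive and 3 a negative averaged difference, with 3 higher alike (Junb, Egr1 and Btg2), and limma called 0 on average (3 had an unadjusted p under 0.05). Over all tested genes 5541 of 16355 differences were positive, 3.09% of genes were higher alike and 2.51% were higher at an unadjusted p under 0.05. The median difference was 0.27, against -0.05 over all tested genes. It was 0.44 in KO, 0.41 in KO without KO vehicle 1 and -0.17 in controls. In the Derlin-1 line the median was -0.20. Fos, a subunit of the AP-1 transcription factor, read 1.67 and 1.95 on the control vehicle arrays, 1.27 and 1.39 on the control 4PBA arrays, -0.89 and -0.39 on the KO vehicle arrays and 1.23 and 1.73 on the KO 4PBA arrays. The KO vehicle arrays were far below the other 6, and the KO difference was 2.12 (limma adjusted p = 0.354), or 1.88 without KO vehicle 1 (limma adjusted p = 0.623). Nr4a2, an orphan nuclear receptor, read 1.99 and 1.84, then 1.50 and 1.63 in controls, and 0.49 and -0.21, then 1.42 and 1.96 in KO. Its relative Nr4a1 read 2.33 and 2.45, then 2.47 and 2.42 in controls, and 1.43 and 1.21, then 2.54 and 2.66 in KO. Both receptors had the pattern of Fos, as did Dusp1, a phosphatase of MAP kinases, with 1.41 and 1.59 on the KO vehicle arrays against 2.45 to 3.21 on the 6 other arrays.

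Apold1, an early gene of endothelial cells, was the list's only member called in KO. It read -2.26 and -2.38 on the control vehicle arrays, -2.72 and -2.45 on the control 4PBA arrays, -3.83 and -3.92 on the KO vehicle arrays and -2.30 and -2.27 on the KO 4PBA arrays. The KO difference was 1.59 (limma adjusted p = 0.0197), lost without any of the 4 KO arrays (0.0515 without KO vehicle 1, up to 0.132), and the difference between genotypes did not pass (limma adjusted p = 0.096). Btg2, an antiproliferative early gene, was higher alike: -0.31 and -0.47, then -0.15 and -0.14 in controls, and -0.88 and -0.80, then -0.13 and -0.06 in KO (0.50 ± 0.12, SE; limma adjusted p = 0.209). Npas4, a transcription factor specific to neurons, read -3.84 and -2.58 on the KO vehicle arrays and -2.37 and -1.14 on the KO 4PBA arrays, so its 4PBA arrays lay higher within the KO, by 1.46 with all arrays and 0.83 without KO vehicle 1, with a wide spread between replicates (limma adjusted p = 0.618). Per1, a clock gene that is also induced by activity and glucocorticoids, read 2.48 and 2.45 on the KO vehicle arrays and 3.26 to 3.96 on the other 6.

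**Figure D3:**
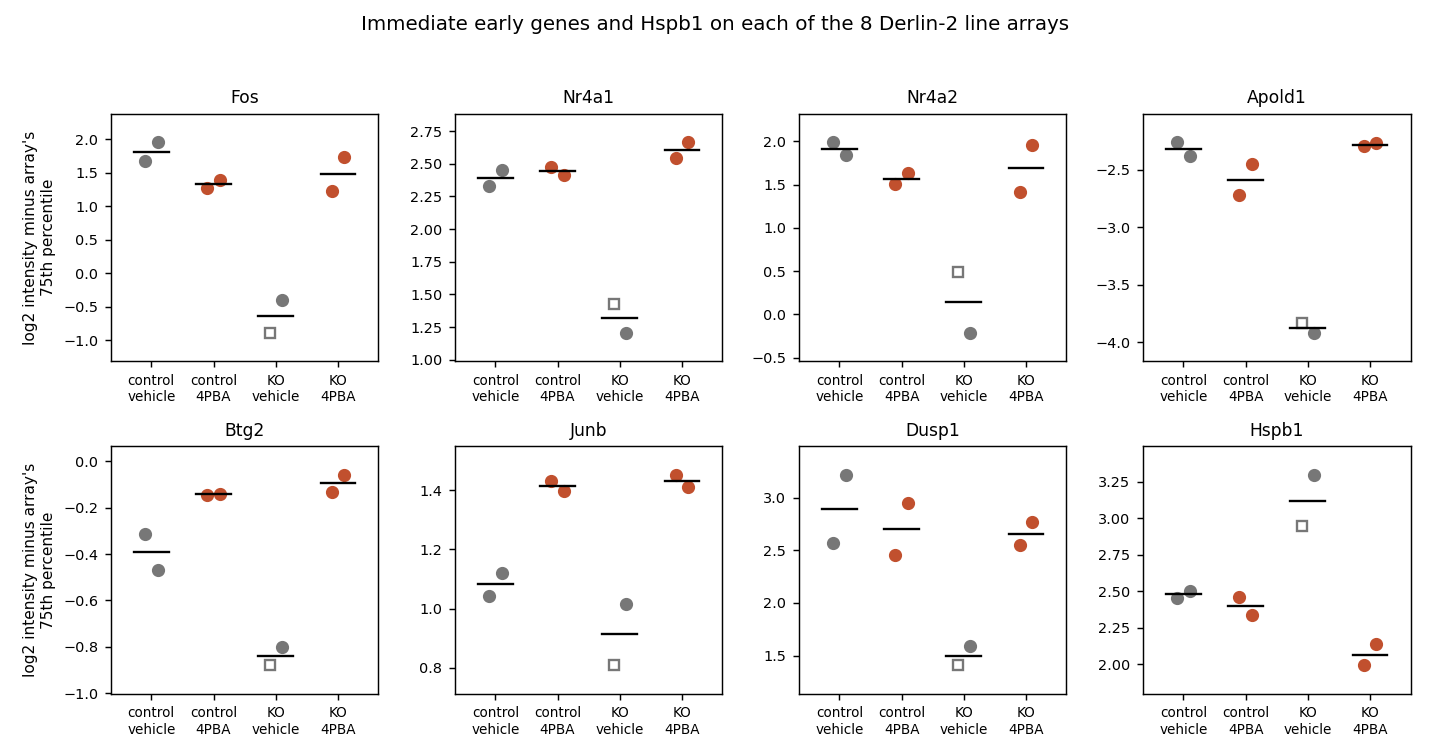
Level (log2 intensity minus the array's 75th percentile) of 7 immediate early genes and of Hspb1 on each of the 8 arrays. Points are arrays, black lines are means of the 2 arrays of a group, grey is vehicle, orange is 4PBA, and the open square is the array labelled KO vehicle 1. In Fos, Nr4a1, Nr4a2, Apold1, Btg2 and Dusp1 both KO vehicle arrays are the lowest of the 8, whereas for Hspb1 they are the highest.

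Because several of these genes shared this pattern, 3 of their promoters are shown, as the 250 bases before the RefSeq transcription start in GRCm38.p6, with capitals marking the half-site TGACG of the cyclic AMP response element on either strand. On the + strand these are Fos at chr12:85473640-85473889 and Apold1 at chr6:134981751-134982000, and on the - strand Npas4 at chr19:4989972-4990221. All 3 windows lie upstream of the first exon, and each holds at least 1 half-site.
Fos: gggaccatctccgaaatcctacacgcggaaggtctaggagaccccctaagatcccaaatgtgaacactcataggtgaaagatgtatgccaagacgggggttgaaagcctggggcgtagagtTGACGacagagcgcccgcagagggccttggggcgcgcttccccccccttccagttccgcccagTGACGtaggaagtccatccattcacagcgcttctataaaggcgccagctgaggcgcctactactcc
Apold1: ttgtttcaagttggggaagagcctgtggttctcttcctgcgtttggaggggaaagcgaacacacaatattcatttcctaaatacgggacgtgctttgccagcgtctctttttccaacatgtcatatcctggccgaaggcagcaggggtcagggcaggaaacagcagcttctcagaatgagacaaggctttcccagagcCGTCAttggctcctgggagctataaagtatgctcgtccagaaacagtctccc
Npas4: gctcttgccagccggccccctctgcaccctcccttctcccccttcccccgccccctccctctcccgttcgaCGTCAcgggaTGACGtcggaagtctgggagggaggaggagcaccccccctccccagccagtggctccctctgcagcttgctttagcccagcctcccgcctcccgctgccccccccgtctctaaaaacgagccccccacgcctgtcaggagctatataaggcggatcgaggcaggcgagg
The full element TGACGTCA was found in 508 of 32851 RefSeq windows of this length (1.55%) and in the windows of Btg2 and Dusp1 among 13 early genes with an entry. The half-site, searched after the full element and overlapping it, was in 5836 windows (17.8%) and in 12 of the 13 early genes. The half-sites begin 129 and 66 bases before the start in Fos, 52 in Apold1, and 179 and 169 in Npas4. These matches describe the letters alone and were chosen knowing the levels.

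No member of the heat shock, ER stress or ERAD lists was called on average (limma; 2, 2 and 2 members had an unadjusted p under 0.05), in data where 10814 of 16355 differences were negative. In the heat shock list, 4 of 16 members had a positive and 12 a negative difference, the median was -0.06, none was called on average and Hspb1 was called in KO. Hsp90aa1, a cytosolic chaperone, differed by -0.30 (limma adjusted p = 0.286) and its other probe by -0.29. The mitochondrial chaperonin genes Hspe1 (-0.19) and Hspd1 (-0.09) and the cytosolic Hsph1 (-0.17) were lower alike. The promoter of Hspb1, the list's called gene, lies on the + strand at chr5:135887669-135887918 (GRCm38.p6, RefSeq), upstream of the first exon, and holds 2 copies of the heat shock element core GAANNTTC, in capitals.
Hspb1: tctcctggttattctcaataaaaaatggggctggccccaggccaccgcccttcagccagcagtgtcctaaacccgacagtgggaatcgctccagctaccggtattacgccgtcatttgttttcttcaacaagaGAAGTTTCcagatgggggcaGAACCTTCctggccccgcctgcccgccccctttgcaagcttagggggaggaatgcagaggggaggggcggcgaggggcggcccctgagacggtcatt
The copies begin 117 and 97 bases before the start. The core reads the same on both strands and was found in 2199 of 32851 windows (6.69%), and in 6 of 17 windows of the 12 heat shock genes with an entry.

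In the unfolded protein response list 10 of 25 members had a positive and 15 a negative difference, with a median of -0.06. That median was -0.11 without KO vehicle 1 and 0.04 without KO vehicle 2. Hspa5, the main ER chaperone, differed by -0.13 and Hsp90b1, the ER paralogue of Hsp90, by -0.34. Hsp90b1 read 4.32 and 4.41, then 4.32 and 4.13 in controls, and 4.81 and 5.31, then 4.39 and 4.65 in KO, so the KO vehicle arrays were the highest and the 4PBA arrays were lower alike, without passing (limma adjusted p = 0.521). The Perk branch genes Atf3 (0.57), Chac1 (0.36) and Trib3 (0.36) had differences of 1.11, 0.73 and 0.73 in KO and 0.04, -0.0083 and -0.012 in controls. None was called in either genotype, and limma's test of the difference between genotypes did not pass for any of the 3. Without KO vehicle 1 the averaged values were 0.53, 0.28 and 0.22. Ppp1r15a, which reverses that branch's block of translation, was higher alike (0.29; limma adjusted p = 0.505). Asns, also in the list, went the other way, by -0.25 (-0.13 in controls and -0.37 in KO) and by -0.14 on its other probe. Of 23 ERAD genes 4 had a positive and 19 a negative difference (median -0.08). Sel1l, the scaffold of the Hrd1 ligase, differed by -0.19 and Selenos, which links the ligase to Vcp, by -0.20, with Selenos lower alike.

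For the deacetylase function of 4PBA, 11 histone deacetylase genes had a median difference of -0.04, and Hdac4 was higher alike (0.20; limma adjusted p = 0.521). Of 12 genes known to rise with butyrate-type inhibitors, 6 had a positive and 6 a negative difference (median -0.01). Bdnf, a neurotrophin, was the member higher alike: -0.04 and 0.11, then 0.39 and 0.18 in controls, and -0.03 and -0.24, then 0.32 and 0.28 in KO (0.35; limma adjusted p = 0.573). H1f0, the linker histone used as a marker of deacetylase inhibition, differed by -0.04 and Cdkn1a, a cell cycle inhibitor, by 0.12. The list of fatty acid oxidation genes and targets of the nuclear receptor Ppara had 4 positive and 22 negative differences (median -0.09), with 4 lower alike, among them Fabp3, a fatty acid carrier (-0.22; limma adjusted p = 0.382). Of all tested genes 5541 had a positive and 10814 a negative difference (median -0.05), and 10.0% were lower alike. No member of the cholesterol, glutamine, oxidative stress, circadian, glucocorticoid or cell cycle lists was called, and their averaged medians lay between -0.12 and -0.01. After quantile normalization the cholesterol (0.01), circadian (0.04) and glucocorticoid (0.003) medians were positive and the others negative. The circadian median was 0.02 without KO vehicle 1 and 0.01 without KO vehicle 2. The medians of controls and KO had opposite signs for the glucocorticoid (-0.25 and 0.19) and circadian lists (-0.13 and 0.15), a difference that was not tested for the lists. The cell cycle median was -0.12 in controls, 0.01 in KO and -0.23 on average after quantile normalization.

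Marker lists showed that defining markers of all cell types named above were well above background on all 8 arrays, among them Pcp2, Gabra6, Mbp, Gfap, Aif1 and Cldn5. In bulk RNA, fewer cells of a type and less RNA per cell cannot be told apart. Over all tested genes 10814 differences were negative and 5541 positive, and the list counts here are to be read against that. Of 14 Purkinje cell markers 13 had a negative difference and 5 were lower alike, and none was called. Pcp4, a calmodulin regulator of Purkinje cells, read 7.22 and 7.32, then 6.98 and 7.01 in controls, and 7.15 and 7.68, then 6.83 and 6.91 in KO (-0.41; limma adjusted p = 0.222), or -0.54 without KO vehicle 1 (limma adjusted p = 0.0311) and -0.27 without KO vehicle 2 (limma adjusted p = 0.448). The groups did not overlap for Pcp4, nor for Calb1, the calcium buffer calbindin, between 6.14 and 6.24 with vehicle and between 5.90 and 6.11 with 4PBA (-0.22; limma adjusted p = 0.335). A dimmer Calb1 probe, also on all 8 arrays, differed by -0.010, and its groups overlapped. The median of the Purkinje list was -0.17, but -0.07 after quantile normalization, and these markers are bright: among all genes of a level above 4, 30.0% were lower alike and the median difference was -0.12.

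The choroid plexus and meninges list had 12 of 12 negative differences and a median of -0.30 (-0.66 in controls, 0.06 in KO, or -0.19 in KO without KO vehicle 1). Ttr, the thyroid hormone carrier of the choroid plexus, read 6.86 and 7.16 on the control vehicle arrays, 4.85 and 6.25 on the control 4PBA arrays, 6.76 and 7.82 on the KO vehicle arrays and 7.22 and 7.66 on the KO 4PBA arrays. The control 4PBA arrays were the low ones and the replicates differed widely, so the Ttr difference of -0.66 ± 1.26 (SE) was within the spread. Endothelial and pericyte markers had 11 of 12 negative differences (median -0.14, Flt1 -0.26), microglial markers 11 of 12 (-0.11), astrocyte and Bergmann glia markers 10 of 12 (-0.11), oligodendrocyte markers 8 of 12 (-0.06), interneuron markers 8 of 10 (-0.04), granule neuron markers 7 of 13 (-0.01) and blood markers 6 of 9 (-0.05), with none called. Without KO vehicle 1 the microglial, astrocyte and oligodendrocyte medians were -0.06, -0.04 and -0.02, and without KO vehicle 2 -0.12, -0.15 and -0.10. After quantile normalization the oligodendrocyte (0.03), interneuron (0.02) and granule neuron (0.08) medians were positive. The endothelial (-0.16), microglial (-0.11), astrocyte (-0.02) and blood (-0.07) medians stayed negative. The summed level of the choroid plexus list ran from 7.10 to 8.03 on the vehicle arrays and from 5.66 to 7.87 on the 4PBA arrays, and that of blood from 9.13 to 9.46 and from 8.49 to 9.55. The part of these cells in the differences above was not tested.

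**Figure D4:**
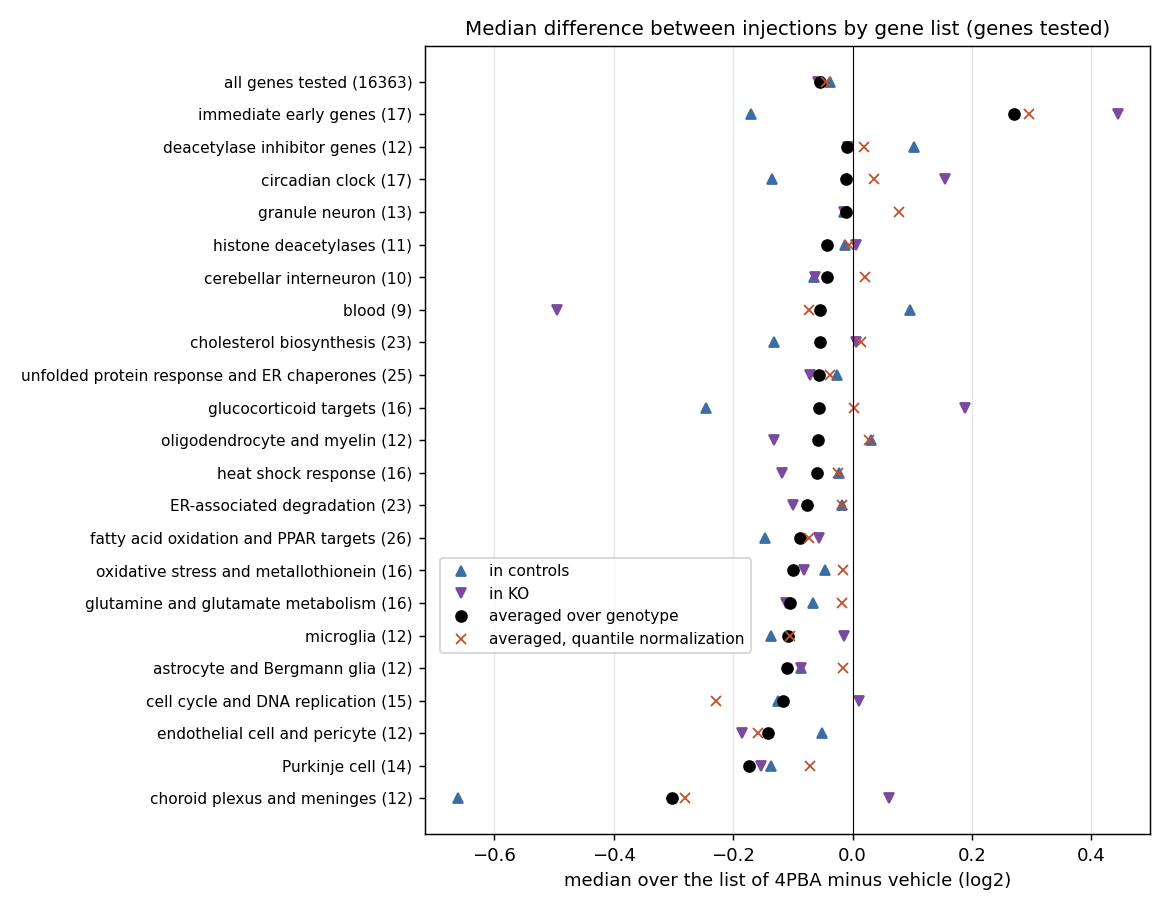
Median difference between injections (4PBA minus vehicle, log2) of each gene list, with the number of genes tested in brackets and all tested genes at the top. Triangles pointing up are controls, triangles pointing down are KO, black points are the average over genotype and crosses the same after quantile normalization. The immediate early genes have the highest averaged median (0.27) of the 22 lists, and the choroid plexus list the lowest (-0.30), with its control and KO values far apart.

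The shift towards lower values differed with the level of the gene, in a way that turned with the normalization. The share of genes lower alike was 5.68% below a level of -4, 4.20% from -4 to -2, 6.20% from -2 to 0, 9.08% from 0 to 2, 15.6% from 2 to 4 and 30.0% above 4. With scaling by the 75th percentile, the median difference was -0.05 below a level of -4, -0.011 from -4 to -2 and -0.12 above 4. After quantile normalization it was -0.27, -0.15 and -0.0093 in the same classes, so that the dimmest genes had the largest shift. In the Derlin-1 line the median above 4 was 0.01. Counts of genes lower alike, such as the Purkinje markers above, are therefore to be read against the share at their level.

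**Figure D5:**
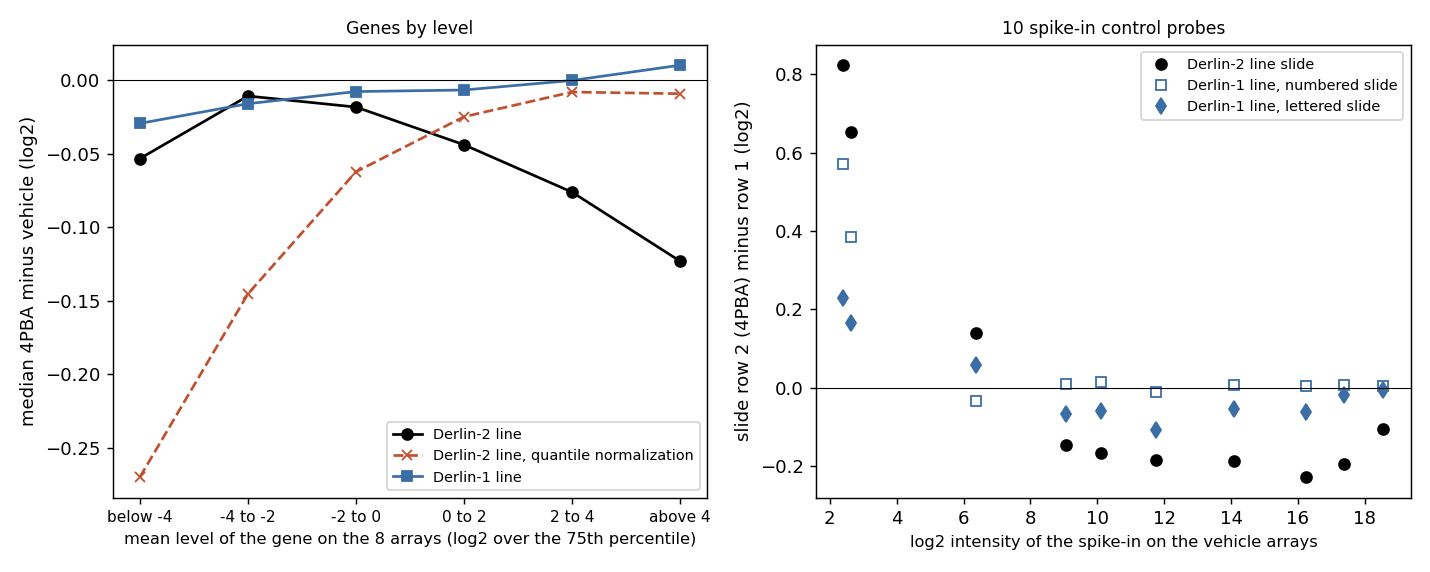
Left, median difference between injections (log2) of genes in 6 classes of mean level, in the Derlin-2 line (black), after quantile normalization (crosses) and in the Derlin-1 line (squares). Right, slide row 2 minus row 1 (log2 intensity) of the 10 spike-ins on the Derlin-2 slide and both Derlin-1 slides, against their intensity on the Derlin-2 vehicle arrays. In the Derlin-2 line the median is -0.12 in the brightest class, whereas after quantile normalization it is lowest in the dimmest class (-0.27), and the 2 dimmest spike-ins are brighter in row 2 on every slide.

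The Derlin-1 line shares no array with the Derlin-2 line. For 4PBA against vehicle or no named injection in the Derlin-1 line, averaged over controls and KO, 0 of 16362 genes passed (limma; 720 had an unadjusted p under 0.05), with 8 against 8 arrays. The test of the difference between the lines passed for 7 of 16354 genes (0.0428%), 6 of them more positive (0.0367%) and 1 more negative (0.00611%) in the Derlin-2 line. That count was 11 without control vehicle 1, 14 without KO vehicle 1, 3 without control 4PBA 2, 14 without KO 4PBA 1 and 13 without KO 4PBA 2. Zscan2, the one of the 7 measured above background throughout the 8 arrays, had 1.18 in the Derlin-2 line and -0.03 in the Derlin-1 line (difference 1.21 ± 0.19, SE; limma adjusted p = 0.0358, and 0.0298 without KO vehicle 1), and the call held in 3 of 8 cases with 1 array left out. For Nfatc1, Ext1 and Car11 the Derlin-1 values were 0.01, 0.01 and 0.08, and their difference between lines did not pass. Over 14266 genes well above background on all 24 arrays, the differences in the 2 lines had a Pearson's r of 0.14, across genes that are not independent and on slides of the same row order.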

How the data were processed

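Per the submitters' processing notes, the authors scanned the arrays with Agilent Feature Extraction 10.7.1.1; per the file headers, its processed intensity is the spot's brightness after background subtraction and spatial detrending, with no scaling between arrays. Here log2 of that deposited intensity minus the array's 75th percentile was used. Repeated spots of a probe were averaged, and spots with the software's outlier flag counted as not measured. A probe was kept if well above background on both arrays (2) of at least 1 of the 4 Derlin-2 groups, and a gene was represented by its brightest kept probe. Of 35244 kept probes, 23765 had a symbol in the files. Of 16363 genes, 392 lacked a value on at least 1 array and were fitted without it.

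Means of 12 groups over all 24 arrays were fitted with limma 3.58.1 (R 4.3.3), with 12 residual degrees of freedom, two-sided tests and Benjamini-Hochberg adjustment over all genes. The threshold was an adjusted p of 0.05. The averaged effect weighs both genotypes equally. The scripts were tested on simulated data. Genes named are those called or with the smallest p among genes moving alike on all 8 arrays, up to 12 in each direction, called genes not moving alike, up to 6 dim and 6 interaction genes, and per list the members called or with the largest change. The members, lists and tests were chosen with earlier results of these data known. Same-numbered arrays had correlated deviations of r = 0.0085 in controls and 0.20 in KO. Alternatives changed the arrays fitted, scaling, background correction (on the median spot signal), filter, probes, variance model and the values, to the authors' deposited intensity table. A gene that the rule names is not reported here.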

Additional observations from a re-analysis of the deposited data

Results flagged for a closer look

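The difference between injections itself differed between genotypes for 8 genes named by the rule, by limma's test of the interaction (KO minus controls, log2). Zscan2 differed by 1.78 (adjusted p = 0.0407) and Ntn4 by 1.54 (adjusted p = 0.0385), and both were well above background on all 8 arrays. Both calls were lost when only genes well above background on all 8 arrays were tested. The other 6 genes passed at the same threshold but were not well above background on some of the 8 arrays, and their fitted sizes are not bounds. Fam83c (4.68), Gm38450 (3.67), Serpinb9f (3.60) and Pudp (3.42) had the larger value in KO and Olfr354, an olfactory receptor, the smaller (-4.21, or -3.21 without KO vehicle 1, its highest array). These 5 genes were well above background on the 2 arrays of 1 group alone and entered the test only through it, so the calls are no support for a difference. With the authors' deposited table the Gm38450 difference was -0.045. Fbxw13 (3.58) was well above background on 5 arrays and had a single value in the KO 4PBA group.

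The difference between injections differed between the Derlin-2 and Derlin-1 lines (Derlin-2 minus Derlin-1, log2, limma) for Zscan2 by 1.21 (adjusted p = 0.0358). It also passed for Fam83c (2.58), Gm38450 (2.34), Myh4 (2.10) and Gm14164 (2.07), which were well above background on 2 of the 8 arrays, those of the group where they are high. For these 4 genes the fitted size is set against probes not above background, and the call is no support for a difference between the lines.

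In spots outside the gene measurements, 2 spike-in controls were brighter on the 4PBA arrays than on the vehicle arrays, E1A_r60_3 by 0.823 and E1A_r60_a104 by 0.652 in log2 intensity, with no overlap. Their part in the values of dim genes was not tested.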

How the results depend on the processing

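Nfatc1 and Zscan2 were the averaged calls among named genes on all 8 arrays that held in each case with 1 array left out. The count of genes called on average (17) was 0 with the 8 Derlin-2 arrays alone, 38 with quantile normalization, 5 with normexp, 2433 with no filter on dim probes, 2 with a filter for all 8 arrays and 44 with outlier spots counted as well above background, an alternative chosen after seeing the data. In controls (23) it was 12 with normexp, 1299 with no filter, 0 with the filter for all 8 arrays, 12 with a trended robust variance and 44 with outlier spots. In KO (26) it was 17 with the 8 arrays alone, 1871 with no filter and 7 with the filter for all 8. For the difference between genotypes (16) it was 9 with normexp, 30 with no filter, 0 with the filter for all 8, 2 with the trended variance and 34 with outlier spots. For the difference between lines (7) it was 3 with quantile normalization, 0 with normexp, 4 with the authors' table, 29 with no filter, 0 with the filter for all 8, 0 with the trended variance and 18 with outlier spots. Genes moving alike (2148) numbered 5222 with no filter. With 1 array left out the counts ran from 20 to 43 on average, 17 to 50 in controls, 26 to 86 in KO, 10 to 30 between genotypes, 3 to 14 between lines and 2757 to 3746 moving alike, where fewer arrays make the condition easier to meet.

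With the replicate number as a block, the counts were 11 on average, 7 in controls, 11 in KO, 8 between genotypes and 2 between lines. The block ended the averaged calls of Nfatc1 (limma adjusted p = 0.0921), Ext1 (0.0921) and Car11 (0.179). Same-numbered vehicle and 4PBA arrays of a genotype also share a slide column, and their deviations from the group means correlated at 0.0085 in controls and 0.20 in KO. Nothing in the labels says that a number marks a shared litter or day, so no pairing was assumed.

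For named genes, signs turned as follows. With the mean of a gene's probes, Nfatc1 was 0.0091 and 2610507B11Rik 0.24, although both probes of each gene had negative differences: the dim probe lacks a value on 1 4PBA array, where the mean is the bright probe alone. By the same mean Hdac9 was 0.13, Mt1 0.26, Fkbp5 0.36 and Ccna2 -0.30. Myh4 was -1.64 with no filter, Pvalb 0.0082 with quantile normalization, and the Gm38450 difference between genotypes -0.045 with the authors' table. With 1 array left out, Gdf10 ran from -0.35 to 0.012 (positive without KO vehicle 1), S100a8 from -0.43 to 0.12 (positive without KO vehicle 1, control vehicle 2, control 4PBA 2 or KO 4PBA 2), Acads from -0.035 (without KO 4PBA 2) to 0.42 and Ccna2 from -0.13 (without KO 4PBA 1) to 0.59. Where no array or filter accounts for a change by construction, the cause was not tested. With 2 arrays per group, dim spots limit what can be measured.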
